A study of Mus musculus with 17 samples.

Results

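The 92 nuclear genes of the mitochondrial respiratory chain were followed through 13 RNA-seq libraries of mouse macrophages. They were chosen by name from 24453 gene models, 20683 of them protein-coding: 45 models of complex I, 4 of complex II, 8 of complex III, 18 of complex IV and 17 of complex V. The complex I models comprised 36 subunits, 7 assembly factors (Ndufaf1 to Ndufaf7) and Ndufa4 with its relative Ndufa4l2. The complex V models comprised 15 subunits and the related factors Atp5s and Atp5sl. The complex was assigned from the start of the gene symbol alone. Counts by complex therefore follow symbols, also for Ndufa4, Ndufa4l2, Atp5s and Atp5sl, and do not show where a protein sits. Subunits encoded by the mitochondrial genome were not analysed here.

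The libraries came from polyA RNA of 2 kinds of macrophage. Immortalised bone marrow-derived macrophages (iBMDMs), from C57Bl/6EiJ bone marrow transformed with BRAF(V600E) and Myc, carried Cas9 and received a lentivirus with a pair of guides against Atf3 (Atf3KO), Jun (JunKO) or Jund (JunDKO), or a scramble control (Scramble). Infected cells were sorted for a transgene of the virus, and whether a line was 1 clone is not given in the sources used here. All are labelled as vehicle-treated, each group had 2 libraries, and the titles of the Scramble libraries name zsGreen. Thioglycollate-elicited macrophages (TGEMs), primary peritoneal cells of C57Bl/6EiJ or Balb/cJ mice, were left with vehicle (PBS) or activated through TLR4 with Kdo2 lipid A (KLA) over 1 h. There was 1 library each of C57Bl/6EiJ with vehicle, C57Bl/6EiJ with KLA and Balb/cJ with vehicle, and Balb/cJ with KLA had 2. All groups of iBMDMs shared the transforming genes, and nothing in the labels says whether libraries of a group came from separate cultures or mice, so p-values measure only the spread between these libraries.

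The respiratory chain sits in the inner mitochondrial membrane. Complex I takes electrons from NADH and complex II from succinate, complex III passes them to cytochrome c, and complex IV hands them to oxygen. The proton gradient built by complexes I, III and IV drives ATP synthesis by complex V. In macrophages the balance between this route and glycolysis is known to shift when the cells are activated through TLR4.

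Several facts of the libraries bear on every result. Libraries held 1553296 to 18444447 reads, as read back from the smallest steps between values. The libraries labelled Atf3KO detected 10425 and 10631 models, against 11884 to 12533 in the other 6 iBMDM libraries, although they held more reads than the Scramble libraries. Atf3KO replicate 2 carries a later date in its title than the other 7 iBMDM libraries. Atf3 RNA was not lower where Atf3 was targeted: it measured 80.7 and 77.4 RPKM (reads scaled to exonic length and library depth) in Scramble and 154 and 169 in Atf3KO. Jun measured 26.2 and 20.5 RPKM in JunKO against 17.6 and 18.5, and Jund 6.94 and 6.07 RPKM in JunDKO against 9.19 and 8.33. Jund also measured 22.6 and 83.0 RPKM in Atf3KO (limma-trend log2 fold change 2.19, SE 0.49, adjusted p = 0.01001). The Atf3 rise passed as well (limma-trend log2 fold change 1.02, SE 0.16, adjusted p = 0.00237). Cas9 cuts can leave a transcript in place, so these RNA levels do not check the labels, and the cause of the rises was not tested. The western blots by which the study checked its knockouts were not analysed here, and groups are named here as labelled. All libraries are labelled male, yet the TGEM libraries held 863 to 8676 reads of Xist, a transcript of the inactive X chromosome, and the iBMDM libraries 0 to 3. All libraries held reads of the 8 macrophage markers (summed level 7802.7 to 33015.1 RPKM, most of it Lyz2), with Fcgr1 as low as 2.18 RPKM and Mertk as low as 7.04 RPKM. Markers of mesothelial cells or fibroblasts summed to 30.4 to 65.0 RPKM in TGEMs and to at most 0.417 RPKM in iBMDMs. Those of B cells summed to 10.1 to 23.9 RPKM in TGEMs and at most 0.488 in iBMDMs, those of mast cells to 1.78 to 12.99 RPKM and at most 0.264, and those of dendritic cells to 0.324 to 1.34 RPKM and 0.

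Sequences are shown for members whose reads could be hard to place. Of the 50-base windows along each member's RefSeq transcript, the share also present elsewhere in the genome was 0% for 48 members and over 80% for 6 members, Atp5g1, Atp5g2, Atp5l, Cox7c, Ndufb4 and Ndufs5. How reads with several matches were treated was not given in the sources used here, so the values of these 6 are uncertain. The last 50 coding bases of Atp5g1, Cox7c and Ndufs5 are given here in coding direction (GRCm38.p6, all on the minus strand), each with an identical copy at another locus. Those of Atp5g1 lie at chr11:96073104-96073153 with a copy at chr11:75428103-75428152, and those of Cox7c at chr13:86045753-86045802 with a copy at chr11:75599763-75599812. Those of Ndufs5 lie at chr4:123712822-123712871 with a copy at chr16:42955902-42955951.
Atp5g1: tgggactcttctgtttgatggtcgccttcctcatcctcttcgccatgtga
Cox7c: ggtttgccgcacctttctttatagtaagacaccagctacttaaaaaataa
Ndufs5: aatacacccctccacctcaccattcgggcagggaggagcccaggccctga

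The members were among the well-expressed genes of these cells. Of the 92, 51 stood at 16 RPKM or more in all 13 libraries, 77 had reads in all 13, and 7 stayed under 1 RPKM in every library. Cox4i1, subunit IV of cytochrome c oxidase, ranged from 272 to 488 RPKM, and Atp5b, the catalytic beta subunit of ATP synthase, from 152 to 459 RPKM. The 7 low members were Ndufa4l2, Cox4i2, Cox6b2, Cox7b2, Cox8b, Cox8c and Atp5g2. Cox7b2, Cox8b and Cox8c were listed at 0 in every library. Most of these low members are tissue-restricted isoforms, known from lung, testis or muscle, and their widespread partners Cox4i1, Cox6b1, Cox7b and Cox8a were all present. Cox6a2 and Cox7a1, heart and muscle forms of subunits VIa and VIIa, had reads. Cox7a1 ranged from 0 to 7.79 RPKM. Cox6a2 measured 5.55 and 3.57 RPKM in Scramble and 12.9 and 31.5 in Atf3KO. The JunKO libraries held it at 8.97 and 8.03 RPKM, and the JunDKO libraries at 2.95 and 1.24. In TGEMs it was at 0 in 4 libraries and at 0.266 RPKM in Balb/cJ KLA replicate 1. Markers of muscle summed to at most 0.908 RPKM in any library.

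The summed level of the 92 members was highest in Atf3KO. It was 6030 and 5192 RPKM in Scramble and 7156 and 7892 in Atf3KO. The JunKO libraries summed to 6643 and 5859 RPKM, and the JunDKO libraries to 6631 and 6514. In TGEMs it was 5375 RPKM with vehicle and 4477 with KLA in C57Bl/6EiJ, and 4940 with vehicle and 3827 and 4006 with KLA in Balb/cJ. Both Atf3KO sums lay above all others, the JunKO and Scramble sums overlapped, and 4 of 5 TGEM sums lay below every iBMDM sum. The median level of all detected models also differed between libraries. It was 10.736 and 10.513 RPKM in Scramble, 12.877 and 12.7785 in Atf3KO, and 7.477 to 8.905 in TGEMs. The JunKO medians were 10.959 and 10.634 RPKM, and the JunDKO medians 12.968 and 12.639. Differences in the sums are therefore not shown to be particular to the members. In bulk samples fewer cells and less RNA per cell cannot be told apart.

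**Figure D1:**
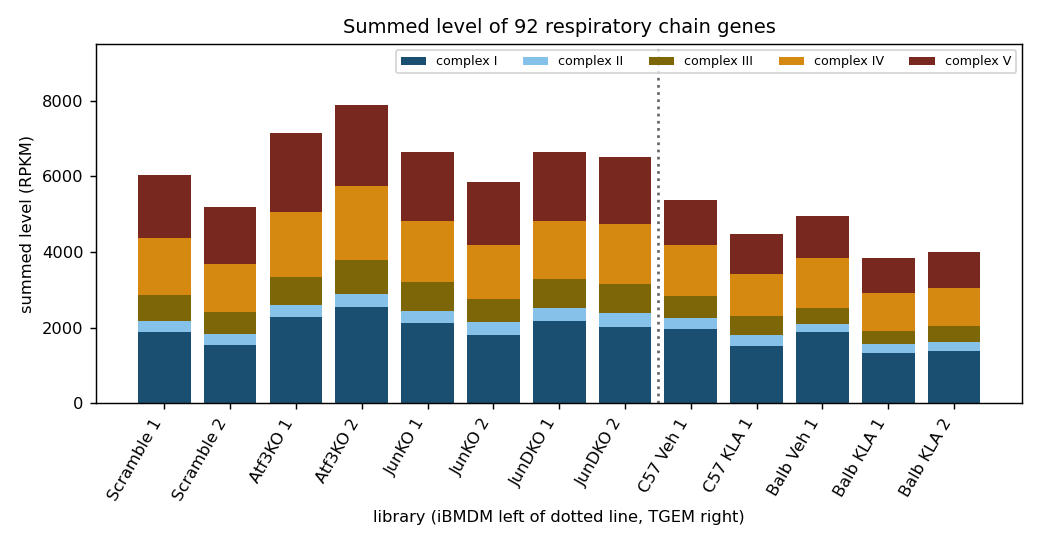
Stacked bars give the summed level (RPKM, linear axis from 0) of the 92 members in each of the 13 libraries, split by complex. The 2 Atf3KO bars reach 7156 and 7892 RPKM and the 5 TGEM bars lie between 3827 and 5375 RPKM.

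The first question was which members differed when Atf3 was targeted. Of 84 members tested, 26 rose and 9 fell in Atf3KO against Scramble (limma-trend on log2(RPKM + 1), n = 2 per group, Benjamini-Hochberg adjusted p under 0.05 over 10691 genes). Of all tested genes 41.2% passed this threshold, 20.7% higher and 20.6% lower in Atf3KO. The members passed at a share of 41.7%, close to that of all genes, with 31.0% higher and 10.7% lower. The median log2 fold change was 0.34 over the members and 0.05 over all tested genes, and it was the same with members lacking reads in a group set to their bounds. With a GC correction the medians were 0.17 and 0.07, with a length correction 0.26 and 0.08, with quantile normalization 0.21 and 0.02, and at equal library medians 0.22 and -0.07. The members' split was then 28 higher and 11 lower, 24 and 11, 19 and 10, and 23 and 10. Over all genes it was 2325 higher and 2059 lower, 2234 and 2228, 1924 and 2135, and 1855 and 2565. When a 2-fold change and 16 RPKM in either group's mean were also asked for, 16 members rose and 3 fell, and 12.5% of all genes passed. The other 8 members were under the minimum mean of 1 RPKM and were not tested.

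Complex I held the members that fell most. Ndufa12, an accessory subunit of complex I (chr10:94199009-94220948), measured 15.9 and 16.8 RPKM in Scramble and 0 in both Atf3KO libraries. Its 33 Scramble reads stood against 0 Atf3KO reads, so its level was at least 35.1-fold lower, taking 3 reads over the group as the floor. It measured 12.7 and 21.0 RPKM in JunKO and 17.4 and 20.6 in JunDKO, so the absence was seen in Atf3KO and in no other library. Ndufb3, a small membrane subunit of complex I (chr1:58586397-58595964), fell from 45.2 and 41.6 RPKM to 4.27 and 4.82. Its log2 fold change was -3.001 ± 0.195 (SE, limma-trend adjusted p = 0.000104). Ndufab1, the mitochondrial acyl carrier protein, fell from 9.15 and 3.68 RPKM to 0.574 and 1.92, at 2 and 11 reads in the Atf3KO libraries. Ndufs1, the largest iron-sulfur subunit of complex I, fell from 37.2 and 38.9 RPKM to 29.589 and 22.002. Ndufs4, Ndufa9 and Ndufaf7 also fell, by 0.79, 0.54 and 0.74 on the log2 scale.

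Among 7349 protein-coding models of at least 200 bases with a Scramble mean of at least 5 RPKM, 71 had 0 reads in both Atf3KO libraries. Ndufa12 was the 1 member among them. The same count was 0 models in JunKO and 9 in JunDKO. The part of this wider absence in the Ndufa12 result was not tested.

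Other complex I members rose. Ndufb2, an accessory membrane subunit, rose from 16.2 and 11.7 RPKM to 31.4 and 42.5 (limma-trend log2 fold change 1.35, SE 0.22, adjusted p = 0.0034). Ndufc2 rose from 35.3 and 37.2 RPKM to 85.8 and 98.3, and Ndufb11, whose gene is on the X chromosome, from 51.9 and 52.4 RPKM to 117 and 139. No Atf3KO library overlapped a Scramble library for these genes, as for all 35 members that passed, so this adds no support. Ndufs3, a core subunit of the arm that carries electrons, rose from 11.1 and 5.65 RPKM to 26.6 and 36.7. Ndufa8, Ndufa4, Ndufa3, Ndufb6, Ndufb10 and the assembly factor Ndufaf5 rose too, by 0.55 to 1.49 on the log2 scale. Counted by symbol, 12 complex I members rose, Ndufa4 among them, 7 fell and 25 did not pass, at a median log2 fold change of 0.34. Of the core subunits Ndufs1, Ndufs3, Ndufs7, Ndufs8, Ndufv1 and Ndufv2, only Ndufs1 and Ndufs3 passed the test, in opposite directions.

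Complexes II and III held few changes. None of the 4 complex II genes, which encode succinate dehydrogenase, passed the test, with log2 fold changes from -0.03 to 0.35. In complex III only Uqcr11, a small subunit, passed. It rose from 34.9 and 27.1 RPKM to 52.2 and 116, and the 2 Atf3KO libraries stood far apart.

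In complex IV, 7 members rose and 1 fell among 13 tested, at a median log2 fold change of 0.80. Cox6a1, the widespread form of subunit VIa, rose from 167 and 141 RPKM to 292 and 415 (limma-trend log2 fold change 1.18, SE 0.22, adjusted p = 0.00518). Its isoform Cox6a2 rose as well, by 1.96 ± 0.43 SE on the log2 scale (limma-trend adjusted p = 0.00961). Cox6b1, a subunit on the outer side of the membrane, was the 1 member that fell, from 190 and 152 RPKM to 60.2 and 93.3 (limma-trend log2 fold change -1.17, SE 0.23, adjusted p = 0.00605). Cox5a, Cox5b, Cox6c and Cox7b rose by 0.80 to 1.37 on the log2 scale. Cox4i1 did not pass, at 435 and 319 RPKM in Scramble and 288 and 377 in Atf3KO.

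In complex V, counted by symbol and so with Atp5sl, 6 members rose and 1 fell among 15 tested, at a median log2 fold change of 0.58. Atp5e, the epsilon subunit of the catalytic part, rose from 101.3 and 134.3 RPKM to 298 and 385 (limma-trend log2 fold change 1.53, SE 0.22, adjusted p = 0.00184). Atp5sl rose from 8.19 and 7.22 RPKM to 28.9 and 34.7, and Atp5d, the delta subunit, rose by 1.14 on the log2 scale. Atp5j2, a membrane subunit, fell from 149 and 112 RPKM to 81.1 and 72.2. The beta and gamma subunits Atp5b and Atp5c1 did not pass, at log2 fold changes of -0.04 and -0.39.

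The 3 genes for subunit c, which build the rotating ring of ATP synthase from the same mature protein, differed in level. Atp5g3 rose from 102 and 121 RPKM to 246 and 277 (limma-trend log2 fold change 1.23, SE 0.17, adjusted p = 0.00186). Atp5g1 rose from 6.55 and 4.43 RPKM to 18.4 and 16.9. Atp5g2 had 0 reads in all 8 iBMDM libraries, and all of its windows occurred elsewhere in the genome.

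The 4 tested members with over 80% of windows elsewhere were higher in Atf3KO. Ndufs5 rose from 10.3 and 2.32 RPKM to 48.3 and 61.4. Ndufb4 had 1 read over the Scramble libraries and 56 over the Atf3KO libraries, a ratio of 17.5 with an exact 95% interval of 3.02 to 704.5 that covers counting error only. Cox7c had 0 reads in Scramble and 28 in Atf3KO, so its level was at least 2.92-fold higher. It passed the minimum mean only through its Atf3KO libraries, so its place among the members that rose is no support. Among all 116 tested genes with over 80% of windows elsewhere, 29.3% rose and 19.0% fell, with a median of 0.05. The part of shared sequence in these values was not tested. Of the 42 tested members with no window elsewhere 23.8% rose and 7.14% fell, against 22.7% and 18.9% of all such genes. Of the 25 with up to 20% elsewhere 28% rose and 16% fell, against 16.3% and 22.6%. Of the 13 with over 20% and up to 80% elsewhere 38.5% rose and 15.4% fell, against 18.5% and 27.2%.

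**Figure D2:**
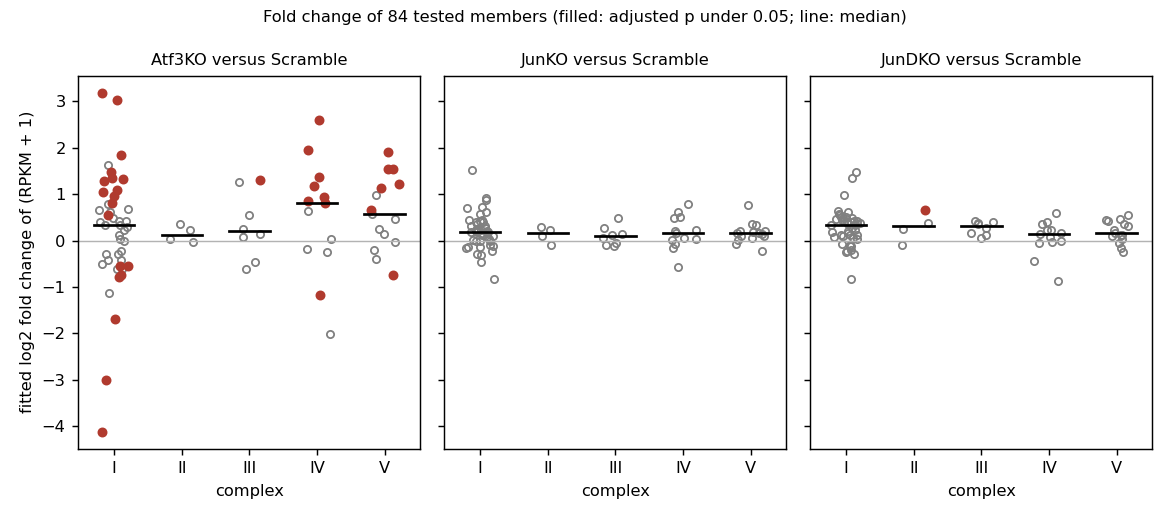
Each circle is 1 of 84 tested members, placed by complex on the x axis and by fitted log2 fold change of (RPKM + 1) on the y axis, for 3 comparisons with Scramble. Filled circles have an adjusted p under 0.05 and lines are medians. In Atf3KO 35 circles are filled, in JunKO 0 and in JunDKO 1.

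The calls in Atf3KO did not all hold equally. The count was 20 without Scramble replicate 1, 21 without Scramble replicate 2 and 21 without Atf3KO replicate 2, which leaves libraries of a single title date. The count over all genes went from 4409 to 3143, 2087 and 2910 in the same order. Calls for 15 of the 35 members passed under all alternatives that tested them: Ndufa12, Ndufb3 and Cox6b1 fell, and Ndufa8, Cox6a1, Atp5g3, Ndufb11, Ndufc2, Ndufb2, Atp5e, Atp5g1, Atp5sl, Ndufb4, Ndufs5 and Cox7c rose, the last 1 having passed the minimum mean only through Atf3KO.

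**Figure D3:**
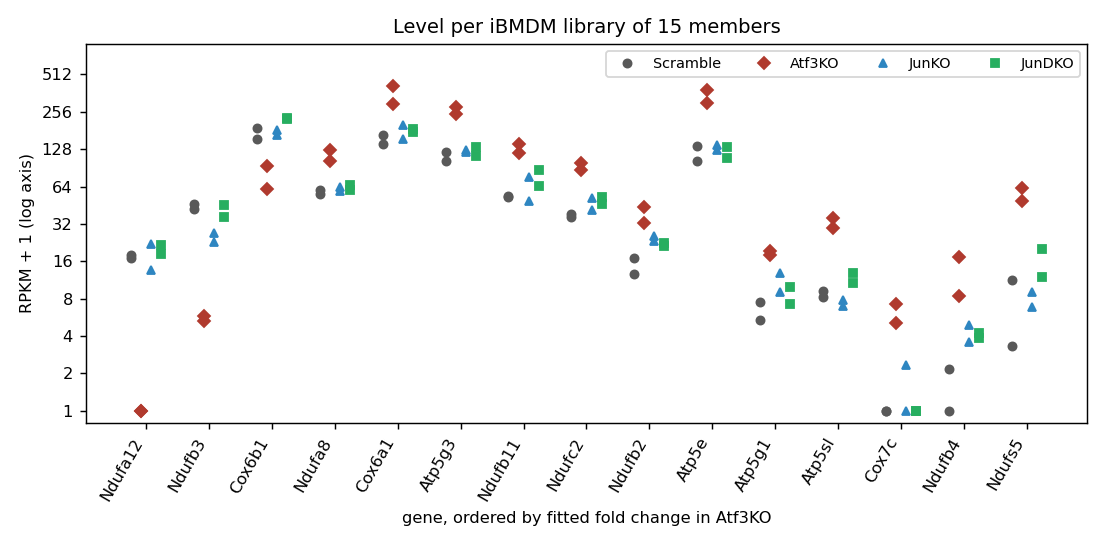
Points give RPKM + 1 on a log axis in each of the 8 iBMDM libraries for the 15 members whose Atf3KO calls passed under all alternatives that tested them. For Ndufa12, Ndufb3 and Cox6b1 both Atf3KO points lie below both Scramble points, and for the other 12 genes above them.

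Promoter sequence is shown for 3 members that rose and 1 that fell in Atf3KO, since AP-1 and the CREB family bind short known motifs. The 250 bases before the start of 76 matched members (RefSeq, GRCm38.p6) were searched on both strands. TGACTCA or TGAGTCA, the TRE bound by AP-1, occurred for 5 members (6.58%) and 5.16% of 27025 genes. TGACGTCA, the CRE bound by ATF and CREB proteins, occurred for 4 members (5.26%) and 1.77% of genes. CCGGAAG, an ETS motif bound by GABP, occurred for 13 members (17.1%) and 7.83% of genes. The palindromic motif of NRF1, without mismatch, occurred for 5 members (6.58%) and 0.877% of genes. A motif of YY1 occurred for 2 members and TCAAGGTCA (ERR) for 1. These motifs do not contain one another, and a match is a description and not a site. The 27025 genes were not matched to the members in expression or base composition, so a higher share is not shown to be particular to the members. The windows are chr6:39592315-39592564 (plus strand) for Ndufb2 with a CRE, chr5:115348959-115349208 (minus) for Cox6a1 with an NRF1 and an ETS motif, chr2:174464102-174464351 (minus) for Atp5e with an ETS motif, and chr6:126849145-126849394 (minus) for Ndufa9 with a TRE. Capitals mark the motifs.
Ndufb2: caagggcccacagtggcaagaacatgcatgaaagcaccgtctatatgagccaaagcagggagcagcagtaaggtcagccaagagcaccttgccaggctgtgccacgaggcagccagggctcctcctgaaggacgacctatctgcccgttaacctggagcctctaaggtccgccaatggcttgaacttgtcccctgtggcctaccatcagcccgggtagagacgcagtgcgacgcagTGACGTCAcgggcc
Cox6a1: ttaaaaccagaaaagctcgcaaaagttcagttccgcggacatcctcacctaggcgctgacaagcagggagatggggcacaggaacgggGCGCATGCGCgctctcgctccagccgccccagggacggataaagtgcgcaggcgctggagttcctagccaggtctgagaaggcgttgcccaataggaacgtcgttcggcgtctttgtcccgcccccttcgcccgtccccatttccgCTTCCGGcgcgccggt
Atp5e: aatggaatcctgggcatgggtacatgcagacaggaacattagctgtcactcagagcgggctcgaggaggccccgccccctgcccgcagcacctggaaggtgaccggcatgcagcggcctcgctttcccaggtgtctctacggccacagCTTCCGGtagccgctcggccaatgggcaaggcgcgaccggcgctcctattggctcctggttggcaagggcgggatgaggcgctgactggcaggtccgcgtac
Ndufa9: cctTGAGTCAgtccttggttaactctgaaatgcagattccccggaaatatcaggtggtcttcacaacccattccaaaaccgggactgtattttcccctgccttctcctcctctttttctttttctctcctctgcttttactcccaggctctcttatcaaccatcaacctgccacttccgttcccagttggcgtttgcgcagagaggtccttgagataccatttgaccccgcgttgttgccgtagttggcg

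Of the 4 members with a CRE, Ndufb2 rose in Atf3KO, and Ndufa10, Ndufa11 and Uqcrfs1 did not pass the test. Of the 5 with a TRE, Ndufa9 fell, and Atp5c1, Ndufa13, Ndufa5 and Uqcrh did not pass. Ndufa5 measured 28.7 and 16.2 RPKM in Scramble and 13.007 and 14.5 in Atf3KO.

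Targeting Jun left no member past the threshold. In JunKO 0 of 84 tested members passed by limma-trend, where 0.281% of all tested genes did, and limma-voom on the recovered reads also called 0. At an unadjusted p under 0.05 there were 7 members (8.33%), against 7.88% of all genes. The log2 fold change was above 0 for 63 members, at a median of 0.17 against 0.01 for all genes, and the median was 0.02 without Scramble replicate 2. Ndufb3 had the lowest p, at 26.0 and 21.9 RPKM in JunKO against 45.2 and 41.6 in Scramble (limma-trend adjusted p = 0.212).

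Targeting Jund left 1 member past the threshold. Sdha, the flavoprotein subunit of succinate dehydrogenase (chr13:74322255-74350240), rose from 66.4 and 67.8 RPKM to 109 and 104 in JunDKO (limma-trend log2 fold change 0.66, SE 0.17, adjusted p = 0.0453). Of all tested genes 11.7% passed in this comparison, against 1.19% of the members. The JunDKO libraries also differed in markers. S100a8, the 1 neutrophil marker with reads in the other 6 iBMDM libraries (21.8 to 41.1 RPKM), was at 0 in both. Of the 8 macrophage markers, Itgam (213 and 220 RPKM against 441 and 420 in Scramble), Adgre1 and Lyz2 were lower. Mertk (36.1 and 36.8 RPKM against 7.04 and 8.27), Cd68, Csf1r and Fcgr1 were higher, and Cd14 overlapped. Their part in the result was not tested. Sdha did not pass in 7 of 17 alternatives, which include each library left out and equal library medians. The members' median log2 fold change was 0.24 and that of all genes 0.23, and at equal library medians both were -0.04. The medians parted with quantile normalization, at 0.22 and 0.04, and with a length correction, at 0.30 and 0.23. With the replicate number as a block and without the Atf3KO libraries, an alternative chosen after seeing the data, 10 members were higher and 3 lower, and 2654 genes passed against 1256. With a GC correction 7 members were higher and 1 lower, and 2371 genes passed. At equal library medians and with quantile normalization, the 1 member past the threshold was Ndufaf3, which was lower in JunDKO. Of 17 tricarboxylic acid cycle genes, which feed the chain with NADH and succinate, Idh2, Suclg2 and Fh1 rose in JunDKO and 0 fell.

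The difference between the Atf3KO and JunDKO groups was tested itself. Of 84 members, 19 were higher and 11 lower in Atf3KO than in JunDKO, where 14.9% of all tested genes were higher and 25.9% lower (40.7% in all). The 19 include Cox7c, which passed the minimum mean only through Atf3KO and so is no support. Equal library medians gave 25 higher and 7 lower, against 16 and 13 with quantile normalization, 22 and 17 with a GC correction and 16 and 14 with a length correction. Over all genes the 1590 higher and 2765 lower became 2119 and 2263 with equal medians, 1920 and 2123 with quantile normalization, 1688 and 2941 with a GC correction and 1557 and 2809 with a length correction. Among the members that differed were Ndufa12, at 0 reads against 226 in JunDKO and so at least 43.8-fold lower, and Cox6a2, at 12.9 and 31.5 RPKM against 2.95 and 1.24. Ndufa5 was lower in Atf3KO than in JunDKO, where it measured 48.7 and 38.8 RPKM (limma-trend log2 difference -1.59, SE 0.28, adjusted p = 0.00361). This comparison and the one with Scramble share the Atf3KO libraries.

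Other genes of the pathway moved both ways in Atf3KO, where 20.7% of all tested genes rose and 20.6% fell. Of 37 tested assembly factors outside the 92, 8 rose and 5 fell, at a median of 0.28. Cox20, which helps mature a core subunit of complex IV, stood at 0 RPKM in Atf3KO against a Scramble mean of 26.6. Sdhaf1, which assists complex II, rose from a mean of 6.72 to 32.99 RPKM. Of 16 electron carriers and feeders, 4 rose and 5 fell, at a median of -0.20. Etfdh, which passes electrons from fatty acid oxidation to ubiquinone, fell from a mean of 18.9 to 1.47 RPKM. Of 17 tricarboxylic acid cycle genes 1 rose (Suclg2) and 1 fell (Dld). Of 12 regulators of mitochondrial biogenesis, Nrf1, Esrra and Polrmt rose and Tfb1m fell.

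The next question was whether the members differed after 1 h of KLA. Of 82 members tested in the 5 TGEM libraries with strain as a covariate, 1 fell and 0 rose, where 1.53% of all tested genes passed (1.29% higher, 0.232% lower). Atp5h, the d subunit of the ATP synthase stalk (chr11:115415697-115419919), measured 55.2 RPKM in C57Bl/6EiJ and 131 in Balb/cJ with vehicle. With KLA it measured 13.03 RPKM in C57Bl/6EiJ and 49.6 and 28.2 in Balb/cJ (limma-trend log2 fold change -1.88, SE 0.31, adjusted p = 0.0357). It did not pass in 8 of 16 alternatives, which include each library left out. With title date in place of strain 0 members and 71 genes passed, against 158 genes with strain. With limma-voom on recovered reads 5 members and 312 genes passed, and in 1 fit of 13 libraries 7 members and 431 genes, all these members being lower with KLA. For Atp5h 73.9% of its windows occur elsewhere in the genome. The median was -0.22 over the members and -0.15 over all genes. Of 37 assembly factors outside the 92, Pet117 and Cox17 fell. The interaction of KLA and strain, which leaves 1 residual degree of freedom, called 0 members and 0 of 10357 genes by limma-trend, with 13 members and 835 genes at an unadjusted p under 0.05.

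Between strains, 1 of 82 members passed, where 2.31% of all tested genes did. The log2 difference was below 0, that is lower in Balb/cJ, for 55 members, at a median of -0.26 against -0.08 for all genes. At an unadjusted p under 0.05 by limma-trend there were 24 members (29.3%), against 21.4% of all genes. Ndufa5, an accessory subunit of complex I, measured 54.3 RPKM in Balb/cJ and 14.4 in C57Bl/6EiJ with vehicle. With KLA it measured 25.4 and 13.5 RPKM in Balb/cJ and 3.40 in C57Bl/6EiJ (limma-trend log2 difference 2.02, SE 0.32, adjusted p = 0.0281). Pooled over treatments the groups overlapped, through Balb/cJ with KLA at 13.5 RPKM and C57Bl/6EiJ with vehicle at 14.4. Ndufa5 did not pass in 5 of 15 alternatives. With limma-voom 10 members and 636 genes passed, and in 1 fit of 13 libraries 9 members and 793 genes, against 239 genes. Strain, title date and alignment genome cannot be told apart, since the strains share no title date and Balb/cJ reads were aligned to a genome of their own.

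The last comparison set C57Bl/6EiJ TGEMs with vehicle, 1 library, against Scramble iBMDMs. Of 84 members 6 were higher and 16 lower in TGEMs, where 15.5% of all tested genes were higher and 27.3% lower (42.8% in all), in a fit of 13 libraries that takes the lone library to vary like the other groups. At equal library medians the split was 12 higher and 9 lower, and with quantile normalization 8 and 11, and the median of all genes moved from -0.24 to -0.01 and -0.04. All genes moved alike, from 1692 higher and 2986 lower to 2296 and 2401 with equal medians and 2317 and 2558 with quantile normalization. With the Balb/cJ vehicle library added to the TGEM group 9 members were higher and 22 lower, and over all genes 1772 and 3684. Of the 6 higher and 16 lower calls with 1 library, 5 were kept in all 12 alternatives. Origin, transformation, culture and date cannot be told apart here. The part of the Xist reads and of the mesothelial or fibroblast, B cell, mast cell and dendritic cell markers, which were also higher in TGEMs, was not tested.

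In complex V 5 of 15 tested members were lower in TGEMs, where 27.3% of all tested genes were, and 0 were higher. None of these 5 calls was kept in all 12 alternatives. Atp5b measured 220 RPKM in TGEMs against 425 and 372 in Scramble, and Atp5c1 78.0 RPKM against 150 and 136. Uqcrb, the ubiquinone-binding subunit of complex III, measured 34.6 RPKM against 95.9 and 139. Ndufaf4, an assembly factor of complex I, measured 1.26 RPKM against 9.86 and 12.1. Cox6a2 had 0 reads against 11, and so was at least 11.5-fold lower. The 6 higher members were Ndufa1, Ndufa3, Ndufb2, Ndufc2, Ndufb4 and Cox6a1, of which Ndufb2, Ndufc2 and Cox6a1 did not pass with both vehicle TGEM libraries. Ndufa3 measured 182 RPKM against 58.9 and 42.6, and Ndufa1, an X-linked subunit, 114 RPKM against 37.2 and 29.9. Of 17 tricarboxylic acid cycle genes 10 were lower and 0 higher, at a median of -0.75 against -0.24 for all genes.

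**Figure D4:**
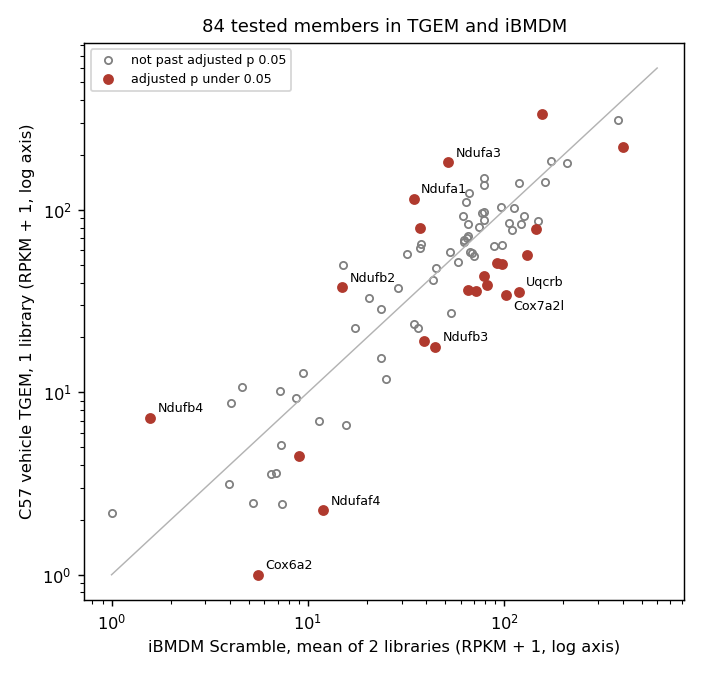
Points are the 84 tested members, by mean RPKM + 1 in the 2 Scramble libraries (x, log axis) and in the 1 C57Bl/6EiJ vehicle TGEM library (y, log axis), with the line of equal levels. The 22 filled points passed an adjusted p of 0.05, with 6 above the line and 16 below it, and names are given where the change was largest.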

How the data were processed

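PolyA RNA-seq of 13 libraries was analysed, and 4 GRO-seq samples were not used here. The authors aligned reads with STAR to mm10, or to a Balb/cJ genome, and counted them over exons with HOMER; versions were not given in the sources used here. The deposited values are RPKM per gene model. Whole reads were recovered from the RPKM step size (100% whole within 0.05 for values up to 50 reads); replicates differed by more than counting error (chi-square per degree of freedom 3.54 to 75.2).

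Genes with a mean of at least 1 RPKM were fitted as log2(RPKM + 1) with limma-trend (R 4.3.3, limma 3.58.1): 4 groups over 8 iBMDM libraries (4 residual degrees of freedom), KLA and strain over 5 TGEM libraries (2), and all 13 libraries for TGEMs against iBMDMs (5). P-values were two-sided and adjusted over all genes tested. Fold changes on this scale understate changes of low genes. The members, lists and comparisons were chosen with earlier results of these data known. Named were core subunits and isoform pairs. The plan was also to name, in each comparison, the 10 smallest adjusted p among passing members and the 3 largest changes each way. It was not followed in full: for Atf3KO against JunDKO only some of these are named. Others were named after their values were seen. Code was tested on simulated data. Marker lists of T or NK cells, eosinophils and neutrophils summed to at most 41.1 RPKM in any library. Tables used pandas 2.3.3 and numpy 2.4.6, intervals scipy 1.17.1 and figures matplotlib 3.10.9, under Python 3.11.15.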

Additional observations from a re-analysis of the deposited data

Results flagged for a closer look

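Between the Atf3KO and JunDKO groups, 30 of 84 members were past an adjusted p of 0.05 by limma-trend, among them Cox7c, which passed the minimum mean only through Atf3KO. This difference was tested directly. The members' share of 35.7% lay below the 40.7% of all tested genes that passed. Groups of 1 or 2 libraries are too small for a test of libraries that stand apart within a group.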

How the results depend on the processing

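No call of a member reversed direction in any alternative run. With single libraries left out, the number of members past the threshold ranged from 20 to 38 for Atf3KO against Scramble, from 0 to 2 for JunDKO, from 10 to 30 for Atf3KO against JunDKO, from 0 to 1 for KLA (Ndufb4 in place of Atp5h without either C57Bl/6EiJ library), from 0 to 7 for strain, and was 17 for TGEM against iBMDM without either Scramble library (8 higher and 9 lower without replicate 1, 4 and 13 without replicate 2). For JunDKO the count was 8 with a GC correction and 2 with a length correction, with 2371 and 1287 genes passing against 1256. For Atf3KO against JunDKO it was 46 with limma-voom on recovered reads, with 5853 genes passing against 4355. For KLA it was 0 with no filter on low values (57 genes passing), with a length correction (152) and with title date in place of strain (71). It was also 0 among members with under 20% of windows elsewhere. The KLA count was 4 at a mean of at least 5 RPKM (217 genes), 5 with limma-voom (312) and 7 in 1 fit of 13 libraries (431). For strain it was 0 with no filter (44 genes passing), 5 at a mean of at least 5 RPKM (341) and 2 with quantile normalization (186). It was 10 with limma-voom (636 genes) and 9 in 1 fit of 13 libraries (793). The cause was not tested. Deviations of same-numbered iBMDM libraries correlated across genes at -0.21 to -0.12 in the 3 pairs of groups with Atf3KO and at 0.18 to 0.22 in the 3 without it, so the numbers did not pair all 4 groups. With the replicate block the count was 31 for Atf3KO, 0 for JunKO, 0 for JunDKO and 30 for Atf3KO against JunDKO. A replicate block without the Atf3KO libraries, chosen after seeing the data, gave 13 for JunDKO. The Jund comparison turned from a median of 0.24 to -0.04 at equal library medians, and TGEM against iBMDM from -0.16 to 0.07. Depth limits members at a few reads.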
